A study of Homo sapiens with 12 samples.

Results

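The question was whether 75 nM H3B-8800 moved splicing differently in SF3B1 K700E cells than in wild-type (WT) cells. For each of 6 MEC1 lines the level in the DMSO sample was subtracted from the level in the H3B-8800 sample, and the 3 K700E changes were then set against the 3 WT changes. Members were the splicing events with at least 20 inclusion plus exclusion reads in all 12 samples, 313032 of the 721551 events in the deposited table. Exons made up 103335 of them and introns 86934, and 72926 were alternative 3' and 49837 alternative 5' splice sites. On either side of the read limit, 4764 members had a lowest sample of 20 to under 22 reads, and 5016 events with a lowest sample of 18 to under 20 reads fell outside.

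MEC1 is an established human B cell line from chronic lymphocytic leukemia. The 3 K700E lines, labelled 41, 38 and 15b, carried the SF3B1 changes c.2098A>G, which gives K700E, and c.2106G>A. WT lines a and b carried no labelled change, and WT line 34b carried c.2106G>A alone. Each line gave 1 sample treated for 6 h with 75 nM H3B-8800 and 1 treated with the vehicle DMSO, so each of the 4 groups had 3 samples. A line here means the samples that share a name suffix. The labels do not say how the lines were made or whether each is a clone. They also do not say whether WT a and b are separate lines or cultures of the same one. An effect of K700E thus cannot be told apart from other differences between these lines, and p-values measure the spread between them. Replicates 1, 2 and 3 below are lines 41, 38 and 15b for K700E and lines a, b and 34b for WT.

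SF3B1 is a subunit of the U2 snRNP that holds the branch point adenosine upstream of a 3' splice site. The K700E protein is known for accepting other branch points, which makes the cell use cryptic 3' splice sites a short way upstream of the usual ones. H3B-8800, an oral splicing modulator, occupies the branch point pocket of the SF3B complex. When branch point recognition is impaired, exons are skipped, introns are retained, or another 3' site is chosen.

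Reads over annotated exon-exon junctions numbered 45840233 to 56676172 in a sample, and the median read number behind a tested value was 171 to 303. All 9 B cell markers, such as CD79A and PAX5, were detected at 1 RPM or more (spliced reads scaled to the same total in each sample), with summed RPM of 7405 to 10517 in K700E with H3B-8800, 6875 to 9301 in K700E with DMSO, 5707 to 6825 in WT with H3B-8800 and 5131 to 6522 in WT with DMSO. Of 6 T and NK cell markers GNLY alone passed 1 RPM, with a summed level of 5.96 to 36.2 over the 12 samples, and the 6 myeloid markers summed to at most 1.69. The higher B cell sum in K700E lines was present in DMSO too, and its part in the results was not tested.

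The splice sites that carry the main pattern are shown first. Each line gives the intron end and the first bases of the exon, 5' to 3' on the gene's strand, from GENCODE release 29 transcripts on GRCh38. The first capital AG ends the intron when the upstream site is used and the second capital AG ends it at the site that WT cells mainly used. The first 5 genes had an upstream site that H3B-8800 raised in K700E cells, the next 3 one that it lowered there, and the last 2 one whose 3 K700E changes had mixed signs.
ZNF410: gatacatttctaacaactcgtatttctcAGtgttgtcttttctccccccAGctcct
ZNF530: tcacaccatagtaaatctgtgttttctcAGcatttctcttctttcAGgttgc
HECTD3: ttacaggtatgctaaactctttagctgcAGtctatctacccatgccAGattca
TMEM214: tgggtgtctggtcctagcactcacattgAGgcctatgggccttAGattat
TMEM87A: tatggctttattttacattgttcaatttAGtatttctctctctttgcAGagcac
FASTKD1: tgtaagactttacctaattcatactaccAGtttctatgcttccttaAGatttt
ATAD2B: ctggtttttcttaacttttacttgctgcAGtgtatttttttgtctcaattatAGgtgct
MED6: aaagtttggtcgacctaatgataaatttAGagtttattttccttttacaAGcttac
NSMCE4A: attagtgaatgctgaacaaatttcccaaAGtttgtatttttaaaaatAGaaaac
ERGIC3: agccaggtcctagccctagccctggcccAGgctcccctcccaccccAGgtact

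On GRCh38 these windows lie at chr14:73893746-73893801 (plus strand) for ZNF410, chr19:57605639-57605690 (plus) for ZNF530, chr1:45008317-45008369 (minus) for HECTD3, chr2:27035549-27035598 (plus) for TMEM214 and chr15:42217829-42217882 (minus) for TMEM87A. Those of the other genes are chr2:169531486-169531538 (minus) for FASTKD1, chr2:23754770-23754828 (minus) for ATAD2B, chr14:70592984-70593039 (minus) for MED6, chr10:121974077-121974130 (minus) for NSMCE4A and chr20:35556925-35556977 (plus) for ERGIC3. All 10 exons entered at the downstream AG overlap coding sequence in the annotation. The upstream AG lies 15 to 24 nt before the downstream one in these genes.

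Exon skipping and intron retention under the drug occurred in both genotypes. With 3 lines against 3 the smallest two-sided exact permutation p is 0.1, so the design cannot pass 0.05 for any class, and the p-values below do not show that the genotypes were alike. Averaged over 46284 tested exons, inclusion changed by -12.9 ± 0.769 percentage points in K700E lines and by -13.8 ± 0.357 points in WT lines (SD, n = 3 lines each; exact permutation p = 0.2, two-sided). Over 45195 tested introns, retention changed by 9.93 ± 1.24 points in K700E lines and 10.3 ± 0.592 points in WT lines (exact permutation p = 0.7). The unspliced share of reads at annotated introns rose by 3.35 ± 0.484 points in K700E lines and 3.02 ± 0.338 points in WT lines (exact permutation p = 0.4). In these 3 classes the lines of the genotypes overlapped.

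Alternative 3' sites 10 to 30 nt from the event's first site, the range in which K700E is known to open cryptic sites, changed more in every K700E line than in any WT line. Their mean use changed by 1.44, 1.78 and 1.59 points in the 3 K700E lines, against 0.326, 0.38 and 0.45 points in the 3 WT lines (2527 sites). The difference was 1.22 points. Sites 3 to 9 nt away changed by -1.07 ± 0.0177 points in K700E lines and -0.748 ± 0.145 points in WT lines, and sites over 30 nt away by 2.64 ± 0.106 and 2.34 ± 0.14 points. These classes reached the smallest possible p of 0.1, with an adjusted p of 0.34 over 17 classes. Alternative 5' sites over 12 nt away changed by 1.47 ± 0.0764 points in K700E lines and 1.7 ± 0.135 points in WT lines, again with lines that did not overlap (exact permutation p = 0.1). Over all members with enough reads and no other filter, the K700E minus WT differences were smaller. They were 0.315 points for 3' sites 10 to 30 nt away, -0.093 for 3 to 9 nt and 0.081 for over 30 nt. For 5' sites over 12 nt away the difference was -0.069 points. Tested sites had to pass a limit on their mean level over all samples, given below. A 3' site hardly used in WT could pass it through its use in K700E alone. The difference of 1.22 points thus depends on which sites were tested, and how much of it comes from this limit was not tested.

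**Figure D1:**
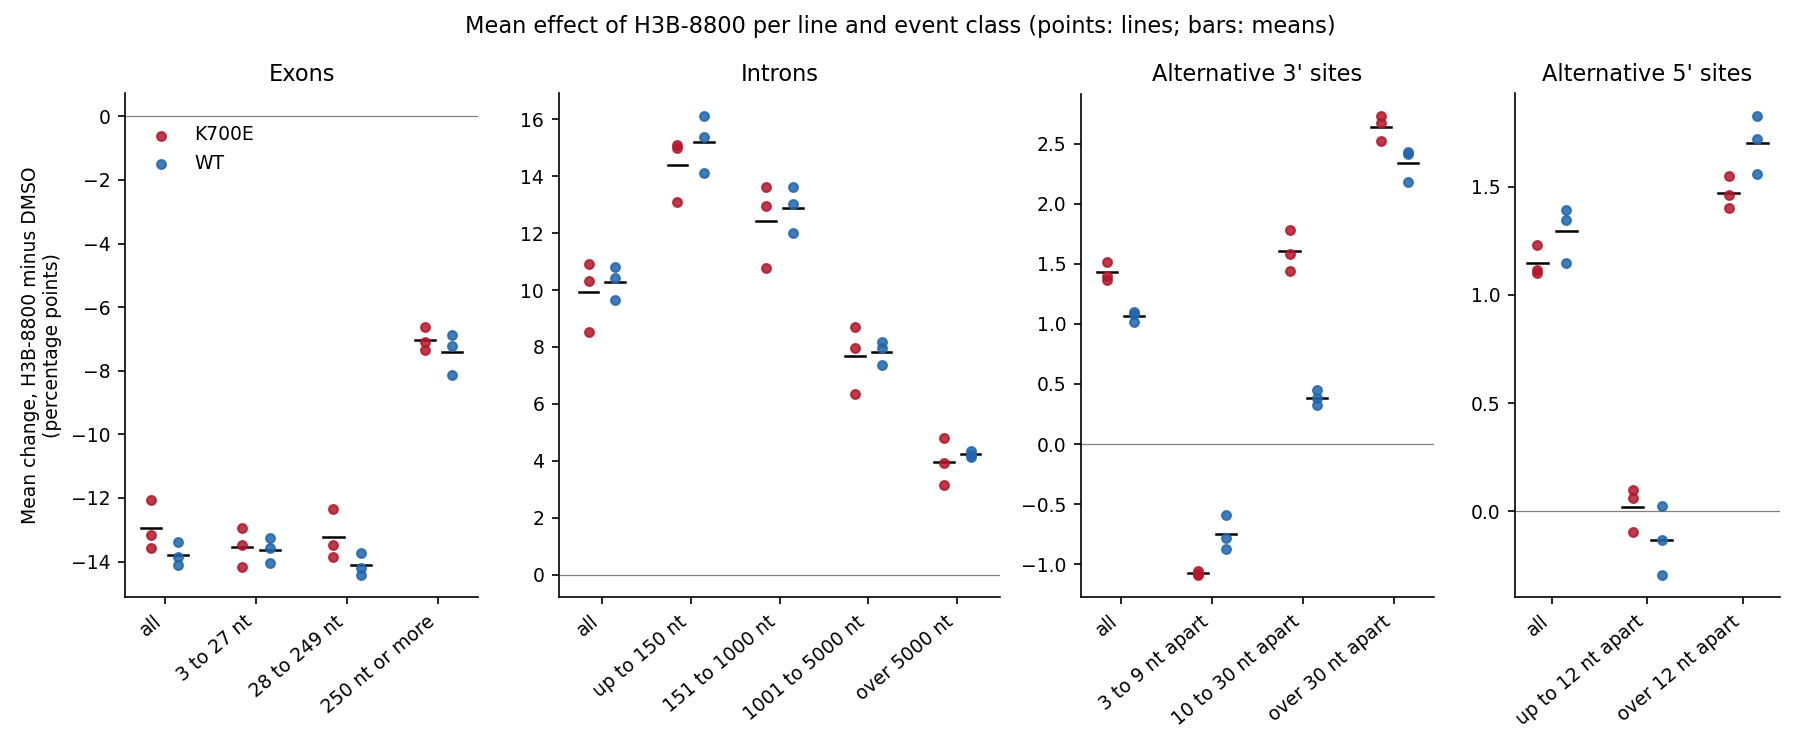
Mean H3B-8800 minus DMSO change in percentage points for each line (K700E lines left in each pair, WT lines right, bars are means of 3 lines) by event class and by exon length, intron length or distance between sites; each panel has its own vertical scale. Exons and introns overlap between genotypes, while alternative 3' sites 10 to 30 nt apart lie between 1.44 and 1.78 points in K700E and between 0.326 and 0.450 points in WT.

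Single events were tested with limma on the per-line change in the logit, log2 of inclusion over exclusion reads, over the 109093 members with a mean level of 1% to 99% that passed the filters below, in 9510 genes. Calls required an adjusted p (Benjamini-Hochberg) below 0.05 and a difference of at least 10 points. No event passed: 0 of 109093 were called (0%), with a lowest adjusted p of 0.335. At an unadjusted p under 0.05 there were 8311 events, of which 1014 differed by 10 points or more. When the 2 samples of a line were not paired, the same test called 10 events (0.00917%), 6 higher and 4 lower in K700E. On the scale of percentage points, a setting that gives equal weight to a change at any level, the paired test called 255 events (0.234%), 156 with a higher and 99 with a lower change in K700E. For 27 of these 255 the logit difference had the other sign, and 123 had an unadjusted logit p under 0.05. Leaving out any 1 of the 6 lines reduced the count on the points scale to 18 to 44 events, so the 255 are given below as calls of that scale alone.

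Among the 15 events of lowest unadjusted logit p with a difference of 10 points or more, none of which passed the adjusted test, 4 were 3' sites that K700E cells used more with the drug than without it and that were at 0.51% or less in all 6 WT samples. A site of WASHC4, a subunit of the endosomal WASH complex, lay at 39.2%, 37% and 40.6% in the K700E samples with H3B-8800 and at 2.52%, 4.49% and 1.35% in those with DMSO. The WT samples had 0%, 0.49% and 0.51% with H3B-8800 and 0%, 0.41% and 0.31% with DMSO, so use of this site was near 0 there with and without drug. The K700E minus WT difference of the changes was 36.1 ± 1.89 points (SE), with an adjusted p of 0.335 on the logit scale and 0.00787 on the points scale in limma.

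In NPLOC4, a cofactor of the p97 segregase, a site 22 nt from the event's first site reached 13.4%, 15% and 13.4% in K700E with H3B-8800 and 1.4%, 0.74% and 1.2% in K700E with DMSO, and was at 0% in all 6 WT samples (lowest sample 622 reads). ACSF3, a mitochondrial malonyl-CoA synthetase, had a site at 18.1% ± 3.04 in K700E with H3B-8800 and 0.8% ± 0.528 in K700E with DMSO, also at 0% in all 6 WT samples. In NOD1, an intracellular sensor of bacterial peptidoglycan, a site lay at 10.4%, 16.6% and 9.51% in K700E with H3B-8800 and at 0% in the other 9 samples, where the lowest read number was 30. These 3 sites were seen in K700E lines alone, and 2 of them were already detectable there without drug. In EDRF1 the tested site was the one WT cells mainly used, at 71.9% ± 3.56 in K700E with H3B-8800 and 94.8% ± 1.66 in K700E with DMSO, against 98.9% ± 0.227 and 97.8% ± 0.614 in WT with H3B-8800 and DMSO. Another site of the same EDRF1 event, 22 nt upstream, was used at 27.8% in K700E with H3B-8800 and 4.09% in K700E with DMSO, and at 1% or less in all 6 WT samples.

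Among these 15, the retention of a 478 nt intron of LTN1, the ubiquitin ligase of ribosome quality control, had the largest difference. It was retained at 19.1%, 12.4% and 12.3% in K700E with H3B-8800 and at 2.86%, 3.23% and 3.52% in K700E with DMSO. In WT it was retained at 56.5%, 55.6% and 64.2% with H3B-8800 and at 1.38%, 1.92% and 2.9% with DMSO. Under drug every K700E line lay below every WT line, while the DMSO levels overlapped. The intron lies at chr21:28943905-28944382 on the minus strand, within the coding part. The difference of the changes was -45.3 ± 2.89 points (SE), with an adjusted p of 0.335 on the logit scale and 0.0135 on the points scale. An intron of CEP135, a centriole protein gene, went opposite ways, changing by -6.19 points in K700E and by 7.21 points in WT.

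Cassette exons made up 7 of the 15. The exon of LNPK, an endoplasmic reticulum membrane protein, was included at 86.6% ± 0.42 in K700E with H3B-8800 and 98.8% ± 0.357 in K700E with DMSO, against 72.3% ± 4.58 and 100% in WT with H3B-8800 and DMSO. An exon of NME7, a component of the gamma-tubulin ring complex, stayed at 92% ± 2.06 and 95.9% ± 2.9 in K700E with H3B-8800 and DMSO, and was at 79.5% ± 6.38 and 100% in WT. An exon of USP13, a deubiquitinase, also had the smaller drop in K700E, by 10.3 points. In SOGA1 the drop was larger in K700E, with changes of -30.8 points there and -13.8 points in WT. An exon of TAF2, a subunit of TFIID, changed by -3.81 points in K700E and by 8.53 points in WT. For the PREX1 exon, in a Rac exchange factor gene, the direction depends on the scale: the difference of the changes was -11.3 points, but 2.36 on the logit scale. The fifteenth event, a 5' site of RANGRF, was used at 99.1% ± 0.188 and 92.8% ± 1.6 in K700E with H3B-8800 and DMSO, and at 94.5% ± 2.47 and 99.5% ± 0.645 in WT.

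On the points scale, 87 of the 10471 tested alternative 3' sites were called with a higher change in K700E (0.831%) and 39 with a lower one (0.372%). The counts partly mirror each other, since sites of an event compete for the same reads: 27 of the 39 belonged to an event that also had a site among the 87, and 12 did not. They leave out the first site of each event, where a mirrored call could not appear. With first sites tested too, 102 of 16833 sites were called higher and 96 lower, so the excess of higher calls depends on this filter. Fits with 1 line left out called 9 to 24 of the 10471 higher and 5 to 8 lower. The median change of the 87 was 19.9 points in K700E and 0.99 points in WT, and 35 of them were at 2% or less in all 6 WT samples. The 39 had a median change of -21.2 points in K700E and -1.12 points in WT. The calls therefore came mostly from sites that moved in K700E lines and hardly moved in WT lines. The 35 sites low in WT met the limit on the mean level mainly through their use in K700E. That part of the pattern is thus shaped by which sites were tested. The logit difference had the other sign for 12 of the 87 and 4 of the 39.

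The 10 alternative 3' sites with the largest difference among these calls, 1 per gene, were taken next; WASHC4 is described above and 8 others follow. In C1D, a cofactor of the nuclear exosome, the site was used at 58.6% ± 1.55 in K700E with H3B-8800 and 18% ± 0.795 in K700E with DMSO, against 3.31% ± 1.7 and 0.917% ± 0.387 in WT with H3B-8800 and DMSO (adjusted p = 0.00148, limma on points).

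CDC23 encodes a subunit of the anaphase-promoting complex. Its site was at 37.3%, 46.9% and 37.4% in K700E with H3B-8800 and at 2.78%, 2.86% and 3.2% in K700E with DMSO, against 2.85% ± 1.21 and 0.417% ± 0.486 in WT with H3B-8800 and DMSO. A site of EEF1A1, the translation elongation factor, was at 51.9% ± 3.96 and 17% ± 4.51 in K700E with H3B-8800 and DMSO and at 0.72% ± 1.25 and 0.61% ± 0.534 in WT. EEF1A1 has many processed pseudogenes, so its junction reads are uncertain.

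In ZNF530, a zinc finger gene, the upstream AG printed above was used at 89.8% ± 3.35 in K700E with H3B-8800 and 48.4% ± 3.66 in K700E with DMSO, and at 7.42% ± 4.26 and 1.17% ± 1.08 in WT with H3B-8800 and DMSO. In ZNF410, a zinc finger transcription factor gene, it was used at 74.6% ± 2.56 and 29.8% ± 2.44 in K700E and at 11.5% ± 1.11 and 0.337% ± 0.15 in WT. TPP2, a cytosolic peptidase, had 85.4% ± 5.01 and 45.5% ± 1.62 in K700E and 5.6% ± 3.67 and 0.38% ± 0.078 in WT. ZNF410 and TPP2 rose by more points in K700E but by a larger factor in WT, and their logit differences were -2.05 and -0.72. ZNF530 and C1D also rose by a larger factor in WT. Their logit differences were 0.951 and 1.004, with adjusted p of 0.731 and 0.616 in limma. WASHC4, CDC23 and EEF1A1 rose by a larger factor in K700E.

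At 2 of the 10 sites use fell with the drug. TTI1 belongs to a complex that stabilises the PI3K-related kinases, and its cryptic site is among the known targets of mutant SF3B1. It was used at 14.9%, 26.5% and 17.2% in K700E with H3B-8800 and at 60.7%, 58.8% and 68.5% in K700E with DMSO, against 2.06% ± 1.15 and 2% ± 1.03 in WT with H3B-8800 and DMSO. H3B-8800 thus left all 3 K700E lines with less than the lowest untreated one, at a difference of -43.2 ± 4.72 points (SE; points-scale adjusted p = 0.0403 in limma). In STAT4, a transcription factor of cytokine signalling, a site 3 nt from its neighbour was at 19.8%, 28.3% and 32.6% in K700E with H3B-8800 and at 85.2%, 90.0% and 79.7% in K700E with DMSO, and at 91.4% ± 0.547 and 98.4% ± 2.75 in WT (lowest sample 22 reads).

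**Figure D2:**
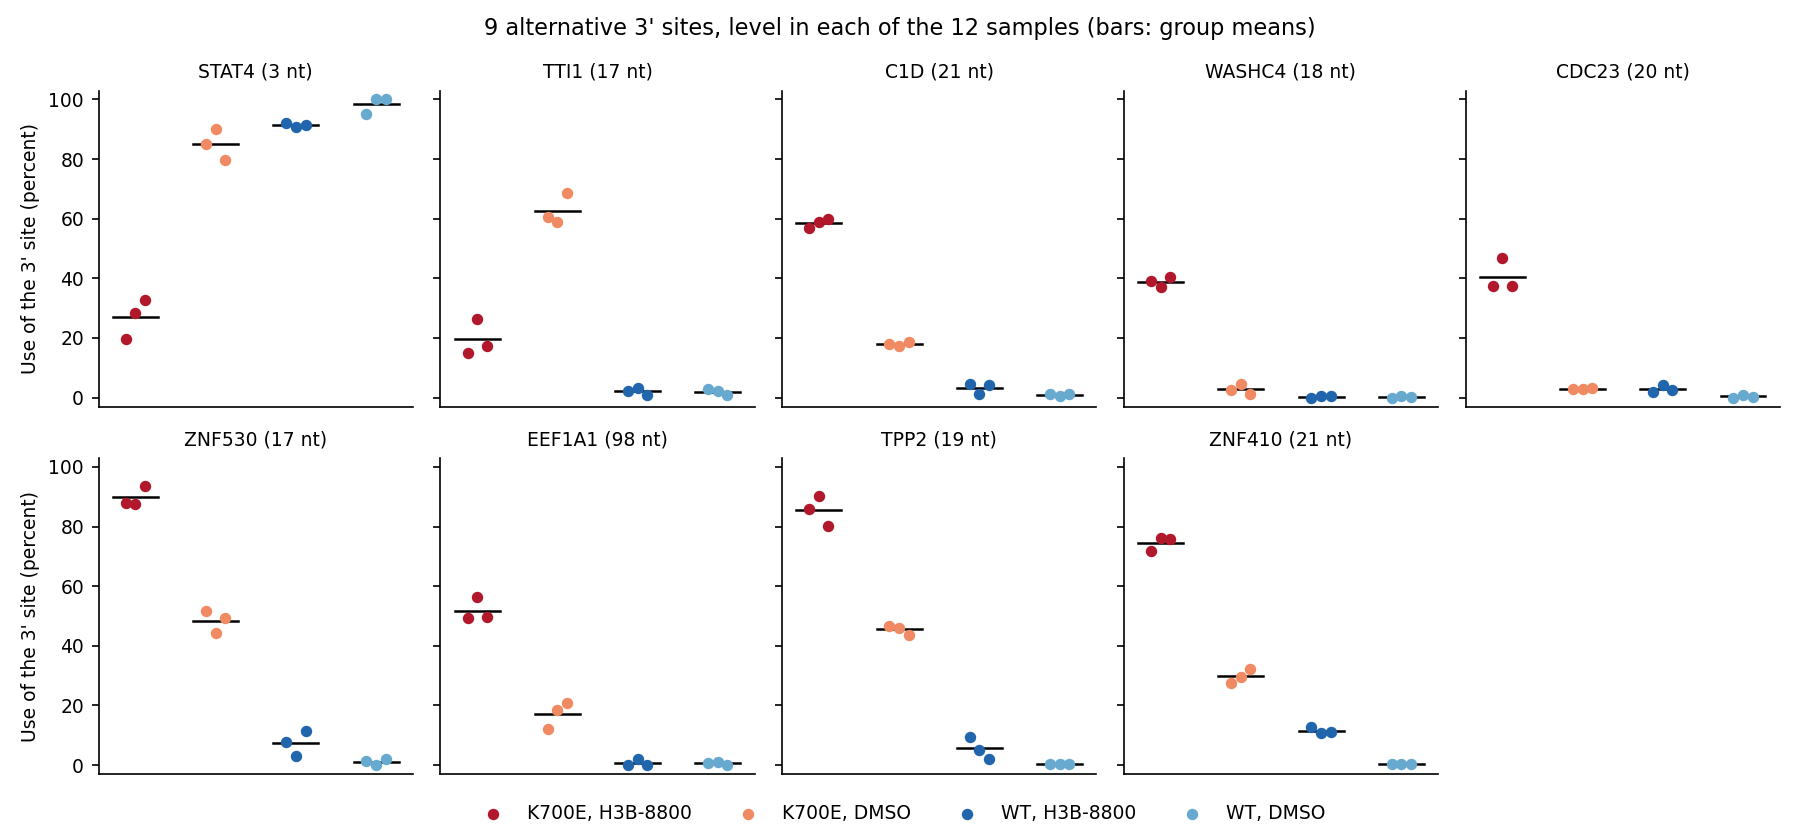
Use of 9 alternative 3' sites, in percent, in each of the 12 samples, with K700E with H3B-8800, K700E with DMSO, WT with H3B-8800 and WT with DMSO from left to right and bars at group means; the nt in each title are the distance from the event's first site. In 7 panels K700E with H3B-8800 is the highest group, while in STAT4 it is the lowest and in TTI1 it lies below K700E with DMSO.

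To follow the cryptic sites themselves, all alternative 3' sites at 2% or less in every one of the 6 WT samples and at 5% or more in the mean of the 6 K700E samples were listed, 269 sites in 257 genes of the 72926 with enough reads. This list was chosen on the measured levels, so its values are a description with no test. The drug raised use in all 3 K700E lines at 159 of the sites, lowered it in all 3 at 44, and moved it in mixed directions at 66. The 159 had a median use of 13.9% with H3B-8800 and 4.28% with DMSO in K700E, and 77 of them rose by 10 points or more. The 44 had medians of 5.95% with H3B-8800 and 13.5% with DMSO, and 10 of them fell by 10 points or more. Of the 159, 87.4% had their AG 10 to 30 nt before the main WT one, with a median distance of 18 nt, and of the 44, 81.8% did, with a median of 17 nt. Of the 66 with mixed directions 68.2% did, with a median of 18 nt. Most sites of each kind thus lay in the same range before the usual AG, and the range does not set rising and falling sites apart. The share over all 72926 sites was not counted. The distance was a multiple of 3 for 35.2% of the rising and 47.7% of the falling sites.

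Sorted by the mean of H3B-8800 and DMSO in K700E, 140 of 233 sites under 20% rose in all 3 lines and 36 fell in all 3, while of 36 sites at 20% or more 19 rose and 8 fell. The sites were not sorted by their level in DMSO, because the limit of 5% on the mean requires any site under 5% in DMSO to be higher with H3B-8800.

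HECTD3, a ubiquitin ligase gene, did not meet the 2% limit, since WT with H3B-8800 reached 3.47% ± 1.19, but its printed upstream AG was used at 37.1% ± 3.17 in K700E with H3B-8800 and 6.38% ± 1.2 in K700E with DMSO. TMEM214 was not among the listed sites either. Its printed site was used at 27.5% ± 1.71 and 4.8% ± 1.65 in K700E with H3B-8800 and DMSO, and at 1.32% ± 1.14 and 0.407% ± 0.369 in WT. TMEM87A had 18.6% ± 2.17 and 1.72% ± 0.989 in K700E and 0.163% ± 0.283 and 0.46% ± 0.572 in WT. All 3 were called on the points scale. Among the 44 falling sites, that of FASTKD1, a regulator of mitochondrial RNA, was at 11.8%, 10.0% and 12.4% in K700E with H3B-8800 and at 40.1%, 36.2% and 34.3% in K700E with DMSO, against 0.353% ± 0.345 and 0.597% ± 0.561 in WT. MED6, a Mediator subunit, also above the 2% limit in WT, had 15.2% ± 1.06 and 26.9% ± 1.63 in K700E and 2.23% ± 0.839 and 2.09% ± 0.741 in WT. ATAD2B had 2.67% and 19.2% in K700E with H3B-8800 and DMSO. NSMCE4A, a subunit of the SMC5-SMC6 complex, kept 55.5% and 52.5%, and ERGIC3 30.2% and 29.2%, with line changes of both signs.

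Annotated transcripts covered few of these sites. Over the listed sites 10 to 30 nt upstream with sequence, the 28 bases before the upstream AG had a median of 57.1% pyrimidines in 16 rising sites, 60.7% in 7 falling ones and 35.7% in 5 with mixed directions. Adenosine made up a median of 28.6%, 21.4% and 32.1% in the same order.

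**Figure D3:**
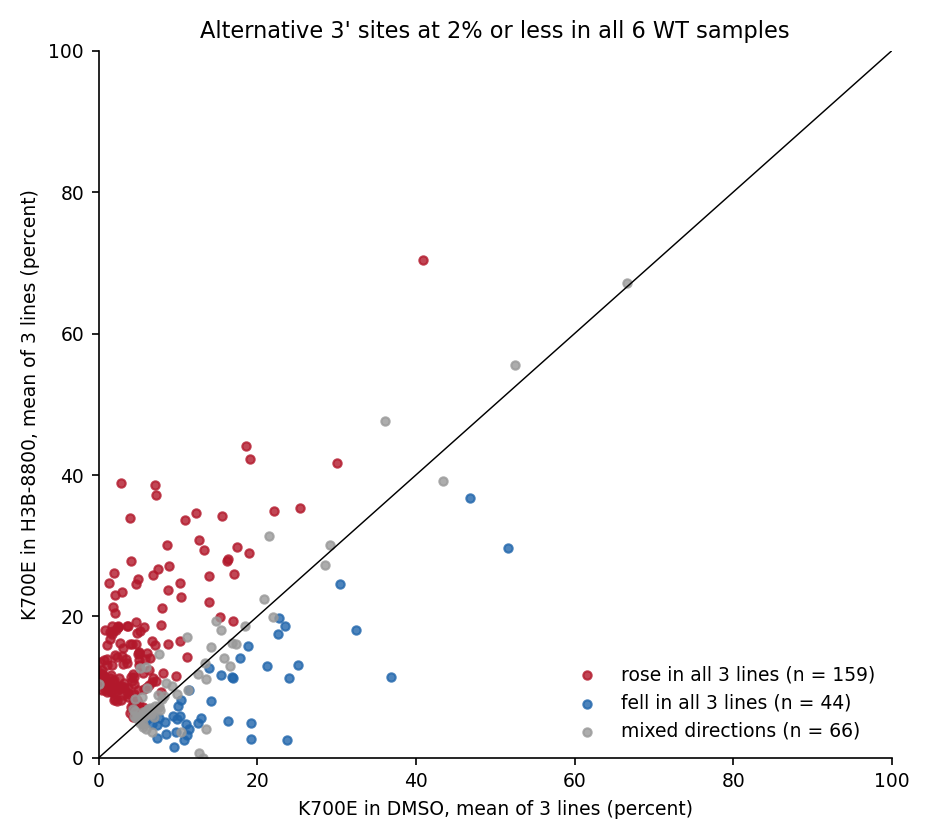
Mean use of 269 alternative 3' sites in the 3 K700E lines, in percent, with H3B-8800 on the vertical axis and DMSO on the horizontal axis, one point per site, coloured by whether use rose in all 3 lines (159), fell in all 3 (44) or moved both ways (66). Points lie on both sides of the line of equal use, and the limit of 5% on the mean leaves out sites that are low on both axes, so a point at the left edge has to lie above the line.

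Known targets of mutant SF3B1 were looked up by name, each at its 3' site with the largest K700E minus WT difference in DMSO, of either sign. At 14 sites K700E was higher by 10 points or more, and sites lower in K700E were left out. Apart from the site of DLST the 14 check the labels, since such higher use marks the mutant protein, and all were chosen on the DMSO samples. The DLST site is the one WT cells mainly used, at 53.3%, 70.8% and 91.8% in WT with DMSO (lowest sample 35 reads). The site of DPH5, a diphthamide synthesis enzyme, was at 67.2% ± 8.27 in K700E with H3B-8800 and 66.7% ± 2.58 in K700E with DMSO, and at 0% and 0.71% ± 0.651 in WT. DYNLL1, a dynein light chain, had 40.6% ± 2.71 and 41.1% ± 2.05 in K700E and 5.35% ± 0.258 and 3.97% ± 0.236 in WT. The sites of ORAI2, SEPT6, ZDHHC16, SNRPN, GCC2 and METTL5 likewise changed by between -5.72 and 6.36 points in K700E. None of these 8 sites passed on either scale, but another event of ORAI2 was called on the points scale.

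MAP3K7 encodes the kinase TAK1, and TMEM14C a mitochondrial porphyrin transporter. Their sites were lower with H3B-8800 than with DMSO in K700E means, at 60.8% ± 8.95 and 70.7% ± 4.21 for MAP3K7 and at 42.9% ± 6.69 and 55.1% ± 7.35 for TMEM14C, but neither difference from WT passed (points-scale adjusted p = 0.53 and 0.441 in limma). The site of ANKHD1 changed by 7.7 points in K700E and 18.5 points in WT (adjusted p = 0.0956), and that of DLST by 3.29 points in K700E and 26.4 points in WT (adjusted p = 0.376). TTI1 was the one of the 14 sites called on the points scale. Over all 400 tested events of 27 list genes, 6 were called higher and 3 lower on the points scale, in 8 genes, beside 0.234% called in either direction over all tested events.

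BRD9, a subunit of the non-canonical BAF remodelling complex, is known for a poison exon that mutant SF3B1 includes. That exon was included at 12.3%, 11% and 16.1% in K700E with H3B-8800 and at 41.7%, 50.6% and 47.8% in K700E with DMSO. In WT it was at 4.37%, 3.87% and 4.75% with H3B-8800 and at 5.49%, 7.63% and 5.36% with DMSO. The treated K700E samples lay between the untreated K700E and the WT samples. The difference of the changes was -31.7 ± 2.75 points (SE; adjusted p = 0.0246 on the points scale and 0.444 on the logit scale, limma).

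Exons called on the points scale numbered 60 with a higher (0.13%) and 18 with a lower difference (0.0389%) of 46284 tested. In 58 of the 60 both genotypes skipped the exon under drug and K700E skipped it less, with median changes of -33.7 points in K700E and -48.1 points in WT. PPIA encodes cyclophilin A. An exon of it without coding sequence was included at 49.4%, 47% and 47.5% in K700E with H3B-8800 and at 87.9%, 88% and 83.9% in K700E with DMSO, against 24.5%, 20.4% and 17.5% in WT with H3B-8800 and 88.4%, 82.9% and 85.6% in WT with DMSO. Untreated levels overlapped between genotypes, and treated ones did not, with a difference of 26.1 ± 1.81 points (SE; points-scale adjusted p = 0.0147 in limma).

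The same form held for DLST, a subunit of the 2-oxoglutarate dehydrogenase complex, whose exon of 98 nt was at 75.1% ± 4.59 and 97.8% ± 0.276 in K700E with H3B-8800 and DMSO and at 51% ± 1.59 and 97.5% ± 0.44 in WT. It held for TRAPPC12, a vesicle tethering protein, at 73.8% ± 2.71 and 99.2% ± 0.242 in K700E and 48.9% ± 5.43 and 99.01% ± 0.872 in WT. An exon of MAP3K7 of 116 nt was at 71.2% ± 0.777 and 94.7% ± 1.08 in K700E and at 58.7% ± 1.14 and 94.3% ± 1.46 in WT. An exon of HSPH1, a heat shock protein of the HSP110 family, was at 63.6% ± 1.08 and 97.3% ± 0.592 in K700E and at 52.7% ± 1.97 and 98.1% ± 0.656 in WT.

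Of the 18 exons with the lower difference, 14 were skipped more in K700E than in WT. An exon of EPB41L4B fell to 57.3% ± 2.42 in K700E with H3B-8800, against 99.2% ± 0.716 with DMSO, and was at 86.8% ± 3.36 and 99.4% ± 1 in WT. PEX3, needed to build peroxisomes, had 66.4% ± 1.87 and 94.5% ± 1.74 in K700E and 91.6% ± 3.9 and 96.1% ± 1.33 in WT. TTC3, a ubiquitin ligase gene, had an exon used in K700E lines, at 25% ± 0.064 with H3B-8800 and 56.6% ± 2.83 with DMSO, but at 4.06% ± 2.46 and 2.07% ± 2.44 in WT (lowest sample 21 reads). DMC1, a meiotic recombinase gene, had 67.6% ± 4.02 and 63.2% ± 6.98 in K700E and 77% ± 5.51 and 49.1% ± 7.55 in WT.

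Introns called on the points scale numbered 9 with a higher (0.0199%) and 38 with a lower difference (0.0841%) of 45195 tested. With 1 line left out, 1 to 3 introns were called higher and 1 to 6 lower. For 35 of the 38 retention rose in both genotypes and less in K700E, with median changes of 16.9 points in K700E and 35.3 points in WT. Beside LTN1 these included GGA3, a Golgi adaptor, with 27.3% ± 0.275 and 5.65% ± 0.702 in K700E with H3B-8800 and DMSO and 62.2% ± 2.95 and 12.1% ± 2.75 in WT. URB1, a ribosome assembly factor, had 39.7% ± 1.04 and 6.65% ± 2.56 in K700E and 63.5% ± 4.16 and 1.62% ± 1.4 in WT. XRCC3, a homologous recombination protein, had 26.8% ± 3.88 and 1.83% ± 0.228 in K700E and 51.1% ± 1.67 and 1.71% ± 0.82 in WT.

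WDR62, a spindle pole protein, retained its intron at 5.51% ± 0.081 in K700E with H3B-8800 and 0.903% ± 0.448 in K700E with DMSO, against 32.6% ± 3.52 and 4.14% ± 0.465 in WT with H3B-8800 and DMSO. WDR6, a partner of a tRNA methyltransferase, had 18.6% ± 2.33 and 6.63% ± 1.41 in K700E and 55.2% ± 6.32 and 19.6% ± 2.22 in WT. The introns of GGA3, WDR62 and WDR6 were thus already retained less in K700E than in WT with DMSO. Their logit differences were -0.965, -0.857 and -0.641, with adjusted p of 0.608, 0.691 and 0.727 in limma. For LTN1, URB1 and XRCC3 the DMSO mean was not lower in K700E. In SUN1, an inner nuclear membrane protein, treated levels met at 88.8% ± 3.29 in K700E and 88.7% ± 1.44 in WT, and the lines differed in DMSO, at 64.3% ± 0.448 in K700E and 40.05% ± 4.67 in WT. Of the 8 introns named for their difference on the points scale, that of NCAPG, a condensin subunit, was the one with the larger rise in K700E, at 36.1%, 34.1% and 35.7% with H3B-8800 and 1.5% ± 0.15 with DMSO, against 5.57%, 5.96% and 5.5% in WT with H3B-8800 and 0.133% ± 0.101 with DMSO (difference 28.3 ± 0.846 points, SE; points-scale adjusted p = 0.00148 in limma). On the logit scale NCAPG differed by 0.12, with an adjusted p of 0.966 in limma.

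**Figure D4:**
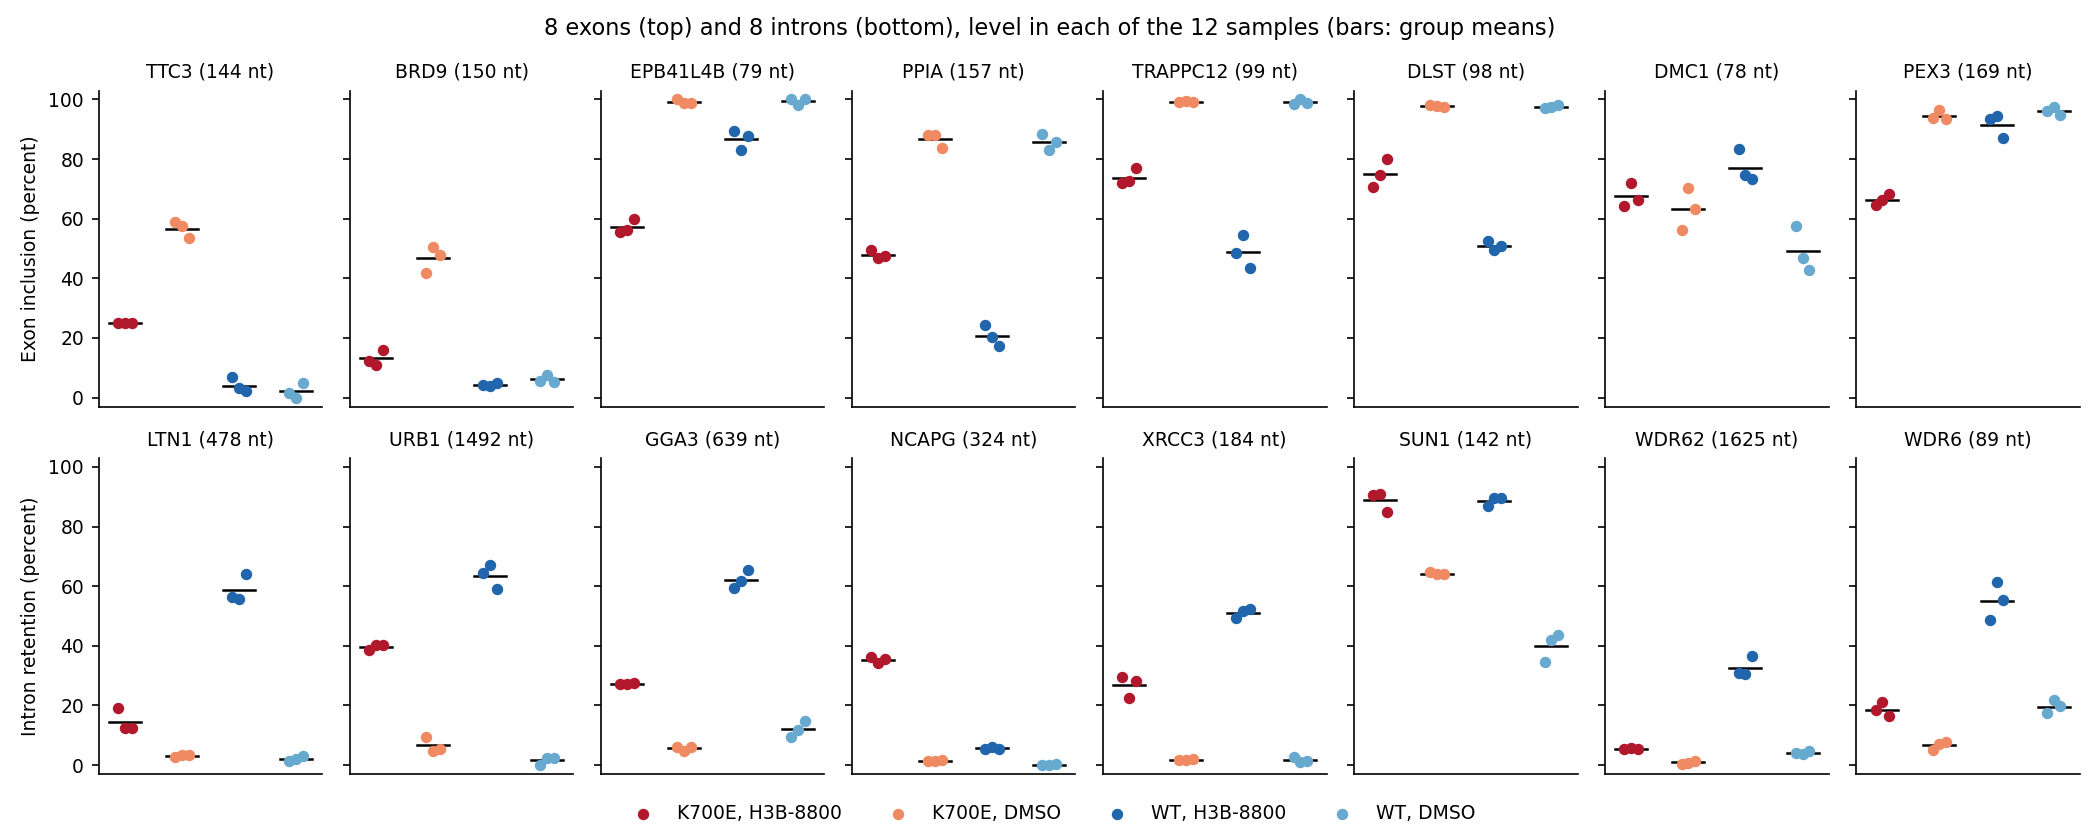
Inclusion of 8 exons (top) and retention of 8 introns (bottom), in percent, in each of the 12 samples, with K700E with H3B-8800, K700E with DMSO, WT with H3B-8800 and WT with DMSO from left to right and bars at group means; the nt in each title are the exon or intron length. PPIA, TRAPPC12 and DLST start near the same level in DMSO and end higher in K700E than in WT, and LTN1 ends near 14.6% in K700E and 58.8% in WT.

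Alternative 5' sites gave 4 calls on the points scale, all lower in K700E (0.056% of 7143). The site of NAA16, an auxiliary subunit of an N-terminal acetyltransferase, went opposite ways, at 44.9% ± 1.06 and 58.2% ± 3.31 in K700E with H3B-8800 and DMSO and at 58.9% ± 2.06 and 34.8% ± 3.22 in WT (difference -37.4 ± 2.54 points, SE; adjusted p = 0.0147, limma on points). ALCAM, a cell adhesion molecule, had 22.1% ± 2.4 and 1.98% ± 0.625 in K700E and 37.3% ± 0.41 and 1.25% ± 0.711 in WT. MRRF, a mitochondrial ribosome recycling factor, had 72.5% ± 0.49 and 71.9% ± 2.76 in K700E and 70.3% ± 3.22 and 51.4% ± 5.14 in WT. The last was in NFYB, a subunit of the CCAAT-binding factor NF-Y, with changes of -13.2 points in K700E and 3.34 points in WT.

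Spliced reads per gene, counted over annotated exon-exon junctions and given as RPM, were the second measure. On it, 485 of 10182 genes had a more positive change in K700E (4.76%) and 131 a more negative one (1.29%), by limma on the paired log2 changes at an adjusted p under 0.05. In 438 of the 485 spliced reads fell in both genotypes and fell less in K700E, and in 95 of the 131 they rose in both and rose less in K700E. On the RPM scale, genes called in either direction thus mostly had the smaller change in K700E. Over all tested genes the median change was -0.221 in K700E and -0.28 in WT with RPM. With scaling by the median of ratios it was -0.004 and -0.011, so the sign and size of a change depend on the scaling. The share of all tested genes with the smaller change in K700E was not counted. The difference was 0.5 or more on the log2 scale for 152 and 24 genes. Scaling by the median of ratios gave 335 and 222 calls and quantile scaling 247 and 179, so the split between directions depends on the scaling, and the median difference over all genes was 0.04 with RPM but -0.01 under both of these scalings. Without WT replicate 3, the WT line with c.2106G>A, 98 genes were called, without WT replicate 1 or 2 there were 211 and 201, without K700E replicate 3 there were 250, and without pairing there were 5.

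SF3B1 itself had 1784, 1656 and 1603 spliced RPM in K700E with H3B-8800 and 1155, 1005 and 1035 in K700E with DMSO, against 1770, 1724 and 1836 in WT with H3B-8800 and 1028, 1006 and 1070 in WT with DMSO. The drug raised it in every line, by 0.66 in K700E and 0.78 in WT on the log2 scale, and the difference of -0.12 ± 0.05 (SE) did not pass (adjusted p = 0.145, limma).

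The largest positive difference was in DCAF16, a substrate receptor of CUL4 ubiquitin ligases. It had 10.2, 12 and 9.95 spliced RPM in K700E with H3B-8800 and 10.6, 12.1 and 10.9 in K700E with DMSO, against 0.512, 0.892 and 0.617 in WT with H3B-8800 and 3.38, 2.66 and 3.08 in WT with DMSO. The K700E mean changed by -0.07 and the WT mean by -2.21 on the log2 scale, with a difference of 2.14 ± 0.26 (SE, log2; adjusted p = 0.0016). Its intron of 335 nt outside the coding part, the tested event of DCAF16 with the lowest p on the points scale, was retained at 11.3% and 3.35% in K700E with H3B-8800 and DMSO and at 73.4% and 39.6% in WT (points-scale adjusted p = 0.0678).

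PKMYT1, the membrane kinase that holds CDK1 inactive, fell to 11 ± 1.23 RPM in K700E with H3B-8800, against 45.3 ± 9.31 with DMSO, and to 3.69 ± 0.208 in WT with H3B-8800, against 34.9 ± 1.57 with DMSO (difference 1.22 ± 0.16, adjusted p = 0.00274, limma). ZBTB32, a repressor of transcription in lymphocytes, had 1.2 ± 0.51 and 7.69 ± 2.38 in K700E and 0.309 ± 0.09 and 4.7 ± 1.18 in WT (difference 1.2 ± 0.24, adjusted p = 0.0166, limma). DLEU1, a noncoding RNA gene in the 13q14 region often deleted in chronic lymphocytic leukemia, had under 4 RPM in every sample and a difference of 1.44 ± 0.35. DNAJA4, a co-chaperone of HSP70, differed by 1.52 ± 0.4, but its K700E lines were far apart, at 0.0764, 2.54 and 10.9 with H3B-8800 and 0.0276, 3.64 and 12.5 with DMSO. Without K700E replicate 1, the line near 0 RPM, the DNAJA4 difference was 0.91 (adjusted p = 0.0273, limma).

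The spliced reads of TTI1 went opposite ways. It had 32.1, 24.7 and 35 RPM in K700E with H3B-8800 and 20.4, 20.9 and 18.5 with DMSO, against 22.8, 26.9 and 28.1 in WT with H3B-8800 and 40.5, 39.8 and 46.9 with DMSO. The 3 K700E changes were positive and the 3 WT changes negative, and the difference was 1.32 ± 0.15 (SE, log2; adjusted p = 0.00108, limma). Use of its cryptic site changed by -43.2 points in the same K700E samples. Reads over the unannotated cryptic junction are not counted in this measure, and how far the 2 values share reads was not tested.

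Of the 6 most negative differences, those other than ANKAR were in genes that rose in WT. CD200R1, an inhibitory receptor, differed by -1.22 ± 0.28 (adjusted p = 0.0269), with changes of 1.03 in K700E and 2.25 in WT. The kinase gene SGK1 changed by 0.12 in K700E and 1.13 in WT, but its K700E samples ranged from 5.92 to 36.6 RPM with H3B-8800. BASP1 changed by 0.38 and 1.13. ERN1, the endoplasmic reticulum stress sensor IRE1, had 27, 25 and 20.6 RPM in K700E with H3B-8800 and 27.6, 26.2 and 22 with DMSO, against 27.1, 34 and 51.1 in WT with H3B-8800 and 18.7, 21.2 and 28.9 with DMSO. It rose in all 3 WT lines and in no K700E line (difference -0.74 ± 0.1, adjusted p = 0.00248, limma). LTN1, whose intron was retained less in K700E, had fewer spliced reads there under drug, with changes of -0.24 in K700E and 0.5 in WT (difference -0.74 ± 0.07, adjusted p = 0.000685, limma). ANKAR fell in both genotypes and fell more in K700E, with changes of -1.67 in K700E and -0.88 in WT.

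**Figure D5:**
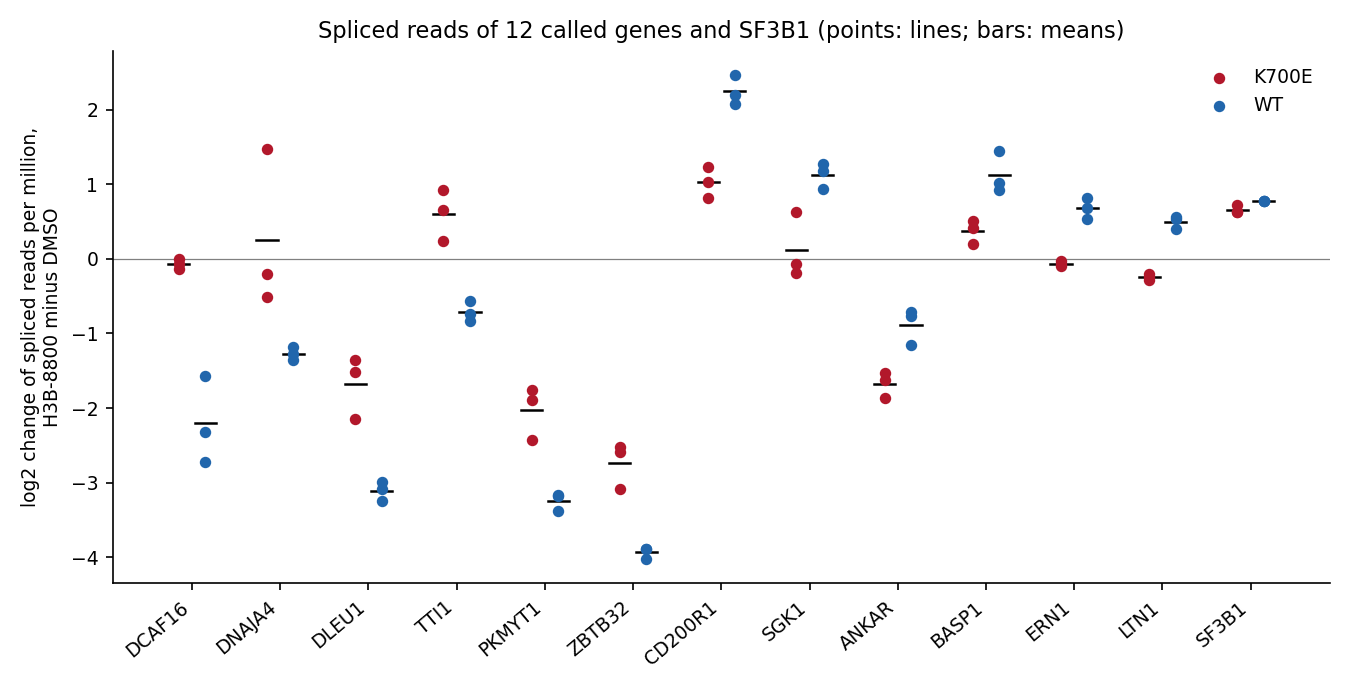
Change in spliced RPM, H3B-8800 minus DMSO on the log2 scale, in each line (K700E left of WT in each pair, bars are means of 3 lines) for 12 called genes and SF3B1. K700E changes lie above WT changes in the first 6 genes and below them in the next 6. In TTI1, ERN1 and LTN1 all lines of one genotype have the opposite sign to all lines of the other.

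Of the known mutant SF3B1 targets, 8 of 26 tested genes had a more positive change of spliced reads in K700E and 0 a more negative one, with a median difference of 0.21 beside 0.04 over all genes. They included TTI1, PPP2R5A, MAP3K7, ABCC5, BRD9, DYNLL1 and DLST. PPP2R5A, a regulatory subunit of protein phosphatase 2A, changed by -0.35 in K700E and -1.11 in WT (difference 0.76 ± 0.08, adjusted p = 0.00087, limma), and MAP3K7 by -0.02 and -0.65 (difference 0.63 ± 0.08, adjusted p = 0.002). These genes were listed for junctions that mutant SF3B1 is known to change.

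The B cell receptor list had 5 of 33 genes with a more positive change and 0 with a more negative one. FCGR2B, an inhibitory Fc receptor, changed by -0.23 in K700E and -0.77 in WT (difference 0.54 ± 0.13, adjusted p = 0.0331, limma), and VAV1, BLK and INPP5D were also among the 5. Of the NF-kappaB and TAK1 list 3 of 29 were more positive and 1 more negative. CD40, a receptor that activates the pathway, changed by -1.77 and -2.52 (difference 0.75 ± 0.11), and TNFAIP3, its inhibitor A20, by 0.27 and 0.7 (difference -0.43 ± 0.07). On the points scale this list had 3 called of 409 tested events, in MAP3K7, CYLD and NFKB1, beside 0.234% called over all events. The 3' site of CYLD, a deubiquitinase that restrains the pathway, was used at 21.8% ± 0.307 and 2.6% ± 0.396 in K700E with H3B-8800 and DMSO and at 4.91% ± 0.488 and 1.05% ± 0.353 in WT. That of NFKB1 was used at 14.5% ± 2.21 and 2.01% ± 0.1 in K700E and at 0.17% ± 0.294 and 0% in WT.

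The DNA damage list had 5 of 35 genes more positive, BRCA1, FANCD2, FANCI, XRCC1 and XRCC3, and 1 more negative, RNF168. The heat shock and stress list had 3 of 25 more positive, HSF1, HSPD1 and HSPH1, and 1 more negative, XBP1, a target of IRE1. Of the genes for nonsense-mediated decay or export of RNA, 2 of 28 were more positive, THOC6 and NBAS, and 1 was more negative. Among splicing factors the SR protein and hnRNP list had 2 more positive, SRSF1 and HNRNPH1, and 1 more negative, SRSF11, of 40, and the SF3B and U2 list 0 and 1, SMNDC1, of 26. Of 33 apoptosis regulators 0 were called in either measure. These counts stand beside 4.76% more positive and 1.29% more negative over all genes. The lists were chosen with earlier results of these data known.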

How the data were processed

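Poly(A) RNA of 12 samples was made into stranded libraries, per the labels' protocols. The authors deposited a table of splicing events with percent inclusion values and a text of read numbers behind each value. The submitters' processing notes name cutadapt 2.4 and hg38; which aligner and event caller were run is not given in the sources used here. Columns of the single runs (72) were not used. Inclusion and exclusion reads were taken from the deposited text, and no deposited percent value differed from them by over 1 point.

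Events with 20 reads in all 12 samples were members. Tests used those that were not the first site of an event, had a mean of 1% to 99% and, for introns, balanced junction reads. The logit used 0.5 added reads. Differences were H3B-8800 minus DMSO within a line, then K700E minus WT, tested with limma 3.58.1 in R 4.3.3 with a trend over read number and Benjamini-Hochberg adjustment over the whole table; scripts were tested on simulated data. Spliced reads per gene (mean of 50 or more) were tested likewise on log2 RPM, reads scaled to the same total. Pairing comes from the line in the labels: deviations of the H3B-8800 and DMSO samples of a line correlated at 0.0147 to 0.0695 over events and at 0.658 to 0.925 over genes. Intervals cover the spread between lines, and reads carry no molecular identifiers.

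Named events were called events by size and type, taken from the points scale because the logit test called 0, plus the 15 of lowest p. Named genes were the 6 most positive and 6 most negative called, where 1 Y-linked gene was passed over. Some named members are not reported here. The sites listed for their WT level, the CYLD, NFKB1, MAP3K7 and HSPH1 events and the printed sequences were chosen after their values were seen. Members and lists were chosen with earlier results of these data known. Alternatives covered pairing, scale, filters, scaling and each line left out. The arcsine scale and the median over introns were added after seeing the data. The points scale was planned, but its own alternatives, with other filters, without pairing or with a line left out, were not.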

Additional observations from a re-analysis of the deposited data

Results flagged for a closer look

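For 12 genes the H3B-8800 change in spliced reads differed between K700E and WT lines by the test of that difference itself (limma, adjusted p under 0.05). The K700E minus WT difference on the log2 scale was 2.14 for DCAF16, 1.52 for DNAJA4, 1.44 for DLEU1, 1.32 for TTI1, 1.22 for PKMYT1 and 1.2 for ZBTB32. It was -1.22 for CD200R1, -1.01 for SGK1, -0.79 for ANKAR, -0.75 for BASP1, -0.74 for ERN1 and -0.74 for LTN1. The DCAF16 call held in all 14 alternatives, while that of DLEU1 was lost in 9 of 13, that of BASP1 in 8 of 14 and that of DNAJA4 in 6 of 14. With each of the 6 lines left out in turn, the difference kept its sign in all 12 genes, and the call was lost 6 times for BASP1, 5 times for DLEU1 and CD200R1, 4 times for DNAJA4, ZBTB32 and SGK1, 3 times for ANKAR and 0 times for the other 5 genes. In DNAJA4, SGK1 and CD200R1 the K700E lines lay far apart in DMSO too.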

How the results depend on the processing

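The logit test called 0 events under its other planned settings, but 10 without the replicate block, 255 on the points scale and, on the arcsine scale added after seeing the data, 163. The points-scale count was 725 without pairing, 367 with first sites included and 18 to 44 with 1 line left out, in fits that were not planned. Genes called on spliced reads numbered 5 without pairing, 98 to 799 with 1 line left out, and 392 of 9788 by the median over introns, also added after seeing the data. Several class differences (K700E minus WT, points), which this design cannot call, changed sign or came to 0.0. With medians in place of means they were -0.183 for exons of 3 to 27 nt, 0.123 for all introns, 0.107 for introns over 150 and up to 1000 nt, 0.14 for introns over 1000 and up to 5000 nt and 0.0 for 5' sites up to 12 nt apart. Exons of 3 to 27 nt gave -0.035 at a minimum of 50 reads. With no other filter, which keeps the first site of each event, all 3' sites and all 5' sites gave 0.0. With 1 line left out, the range was -0.203 to 0.405 for exons of 3 to 27 nt, -0.87 to 0.324 for all introns, -1.028 to 0.396 for introns over 150 and up to 1000 nt, -0.69 to 0.494 for those over 1000 and up to 5000 nt and -0.688 to 0.123 for over 5000 nt. The difference between 3' sites 10 to 30 nt apart kept its sign in all alternatives run, at 0.315 to 1.299 points. Single sites changed sign with the scale. PREX1 gave -11.303 on the points scale and -0.144 on the arcsine scale. On the logit scale, paired or not, TPP2 gave -0.725, ZNF410 -2.054, DPH5 -0.184 and SEPT6 -0.132. DPH5 gave -3.51 to 4.015 points with 1 line left out. The cause of the sign changes was not tested. Of the alternatives for single events and genes, 630 kept direction and side of the threshold, 244 lost the call, 23 gained one and 11 reversed.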
